A study of Mus musculus with 6 samples.

Results

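The miR-29 family was followed in mouse nephron progenitor cells between the embryonic stage E14.5 and the day of birth, P0. Its members were chosen by name from a list of 5 mature mouse miRNAs: mmu-miR-29a-3p, mmu-miR-29a-5p, mmu-miR-29b-3p, mmu-miR-29c-3p and mmu-miR-29c-5p, written below without the species prefix. Of these, 4 matched a row among the 1034 distinct mature miRNAs of the deposited table, and miR-29a-5p matched none and was not analysed here. All 4 passed the filter on low values, a mean of at least 1 TPM (reads per length of the mature sequence, scaled so that each library sums to 1000000), which left 670 miRNAs. For miR-29b-3p, which has 2 genomic copies, the row with the higher total was used.

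Both groups were CD1 mice with no engineered allele or treatment named in the labels, so age was the only labelled difference. Kidneys of a litter were pooled into 1 sample, cortical cells were released by a short digestion, and cells were captured on magnetic beads through the surface integrin Itga8. There were 3 samples at E14.5 and 3 at P0, each from another litter. The libraries held 2649506 to 23691028 recovered reads at E14.5 and 21508833 to 34934526 at P0, so the shallowest 2 were both embryonic. Values for single libraries are given below in the order of replicates 1, 2 and 3.

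A miRNA is cut as a pair of arms from a hairpin. Usually 1 arm, the guide strand, is kept in the Argonaute complex and the other, the passenger strand, is mostly degraded. The guide pairs with mRNAs through its seed, and the mRNA is then repressed. The miR-29 guides (the 3p arms) are known for repressing mRNAs of collagens, elastin, fibrillin and laminin, and also those of de novo DNA methyltransferases. In kidney they are best known from fibrosis, where their loss accompanies matrix deposition. No mRNA was measured in these libraries, so targets were not examined.

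The guide strands are shown first because the comparison of members turns on how little separates them. The seed, bases 2 to 8 from the 5′ end, is in capitals, and the sequences are those of RefSeq on GRCm38.p6.
miR-29a-3p: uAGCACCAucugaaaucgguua
miR-29b-3p: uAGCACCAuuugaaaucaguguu
miR-29c-3p: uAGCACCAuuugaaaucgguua
miR-29c-5p: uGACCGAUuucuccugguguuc
The 3 guides share the seed AGCACCA, which was found in 3 of the 885 miRNAs of the table with a RefSeq sequence (0.339%), all of them miR-29. The passenger strand miR-29c-5p has another seed.

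Counted from 1 at the 5′ end, miR-29a-3p and miR-29c-3p are each 22 bases long and differ by 1 substitution, C10U. From miR-29a-3p to miR-29b-3p the substitutions are C10U, G18A, U21G and A22U, and miR-29b-3p has 1 base more. The last 6 bases of miR-29b-3p, AGUGUU, are known as a signal that directs this miRNA to the nucleus. That ending was found in 2 of the 885 sequences (0.226%), the other being miR-92b-5p. No other mature mouse miRNA of equal length in the RefSeq table lay within 1 substitution of a miR-29 guide. Sequences of other lengths were not compared. How mismatched reads were assigned is not given in the sources used here.

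The hairpins lie in 2 clusters (positions as in the deposited table, build mm10). miR-29a-3p lies at chr6:31062673-31062694 on the minus strand, in the miRNA gene Mir29a, with Mir29b-1 placed 275 bases away and no other annotated gene over either mature sequence. miR-29c-5p (chr1:195037562-195037583) and miR-29c-3p (chr1:195037600-195037621) lie on the plus strand in Mir29c, which is 426 bases from Mir29b-2. Both hairpins of the chromosome 1 cluster fall in exons of the non-coding transcript A330023F24Rik on the same strand. They also lie opposite an untranslated exon of Cd46, a complement regulator.

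miR-29b-3p is made from both clusters, at chr1:195037091-195037113 (Mir29b-2, the row used) and at chr6:31063025-31063047 (Mir29b-1). Its 2 rows held nearly the same number of reads in each library, with differences of 2 to 17 reads, or 0.301% to 5.88% of the larger row. The mature sequence is the same from both copies, so these data do not tell which cluster made it. Whether reads were split between the rows or entered in both is not given in the sources used here. Its level could therefore be higher than the row shows, which bears on its level against other members and not on its difference between the stages.

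The miR-29 guides were minor species in these cells, and miR-29c-3p was the most abundant row of them in every library. By mean level the order at E14.5 was miR-29c-3p, miR-29b-3p, miR-29a-3p and miR-29c-5p, while at birth miR-29a-3p stood above miR-29b-3p. The 3 guides together held 224, 227 and 171 TPM at E14.5, against 529, 154 and 173 TPM at P0. The stages overlapped, and P0 replicate 1 alone stood above all other libraries. Of all TPM they made up 0.0207% ± 0.00315 at E14.5 and at birth 0.0285% ± 0.0211 (SD, n = 3).

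**Figure D1:**
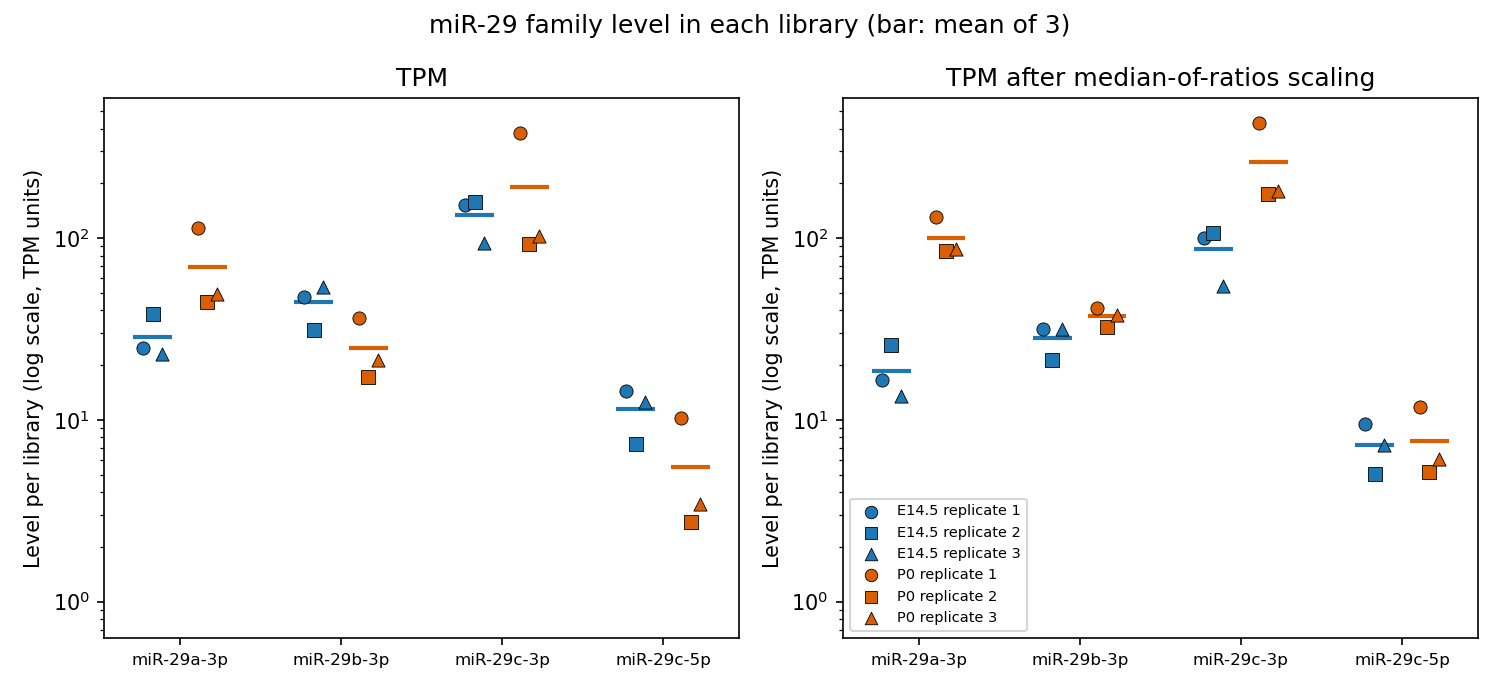
Level of each miR-29 member with a row, per library, in TPM (left) and after median-of-ratios scaling (right), on a log axis; symbols are single libraries and bars are means of 3. In TPM the P0 values of miR-29a-3p (44.6 to 114) lie above those at E14.5 (23.1 to 38.0), and those of the other members overlap between the stages.

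miR-29a-3p was the member whose stages separated. It had 25.0, 38.0 and 23.1 TPM at E14.5, against 114, 44.6 and 49.5 TPM at P0. Every P0 library lay above every E14.5 library, with the widest gap in P0 replicate 1. The means were 28.7 ± 8.12 and 69.3 ± 38.7 TPM (SD, n = 3 per stage), and the log2 fold change on log2(TPM + 1) was 1.15 (SE 0.60, 95% interval −0.15 to 2.44; limma adjusted p = 0.141), which did not pass the threshold of 0.05. Without P0 replicate 1 it was 0.73 (limma adjusted p = 0.162). Stages that did not overlap were common in TPM, at 49.6% of the 670 miRNAs tested, of which most lay lower at P0 (46.4%) and few higher (3.13%). By abundance among all miRNAs it ranked 359, 320 and 383 at E14.5 against 185, 212 and 209 at P0.

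miR-29c-3p, which differs from it by a single base, had 152, 157 and 94.0 TPM at E14.5. It had 379, 92.3 and 102 TPM at P0. P0 replicate 1 was far above all others, while the remaining P0 libraries lay at the low end of the E14.5 values. The means were 134 ± 35.1 and 191 ± 163 TPM (SD, n = 3), and the log2 fold change was 0.22 (SE 0.64, 95% interval −1.17 to 1.62; limma adjusted p = 0.797). Without P0 replicate 1 this value was −0.43 (limma adjusted p = 0.334), and without E14.5 replicate 3 it was −0.01 (limma adjusted p = 0.991), so its sign in TPM rested on single libraries.

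miR-29b-3p, the guide with the nuclear signal, had 47.7, 31.4 and 54.0 TPM at E14.5, against 36.3, 17.2 and 21.4 TPM at P0. P0 replicate 1 lay within the E14.5 range, and the other P0 libraries lay below it. The means were 44.4 ± 11.7 and 25.0 ± 10.1 TPM (SD, n = 3), and the log2 fold change was −0.84 (SE 0.58, 95% interval −2.09 to 0.42; limma adjusted p = 0.261). Without P0 replicate 1 it was −1.13 and passed the threshold (limma adjusted p = 0.0439). Of the 689 miRNAs then tested, 53.0% were called lower and 7.98% higher.

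The passenger strand miR-29c-5p was the scarcest of the 4, with 14.4, 7.38 and 12.5 TPM at E14.5, against 10.3, 2.75 and 3.44 TPM at P0. P0 replicate 1 again lay among the E14.5 values. These rest on 38, 174 and 64 reads at E14.5 and 357, 61 and 74 reads at P0. The log2 fold change was −1.07 (SE 0.62, 95% interval −2.42 to 0.27; limma adjusted p = 0.179), and −1.56 without P0 replicate 1 (limma adjusted p = 0.0246). Another passenger strand of the chromosome 1 cluster, miR-29b-2-5p, was not on the list and had 2.32, 1.04 and 4.97 TPM at E14.5 and 0.805, 0.315 and 0.407 TPM at P0, from 7 to 32 reads per library. It passed the filter on low values only through E14.5 (means of 2.78 and 0.509 TPM), and did not pass it without E14.5 replicate 3. Its log2 fold changes, −1.20 in TPM and −0.56 with libraries scaled by median of ratios, are therefore given as a description with no test.

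The order of the levels differed between the stages only in its middle. At E14.5 the ranges of miR-29b-3p (31.4 to 54.0 TPM) and miR-29a-3p (23.1 to 38.0 TPM) overlapped, so these neighbours did not differ beyond their spread. At P0 miR-29a-3p (44.6 to 114 TPM) lay wholly above miR-29b-3p (17.2 to 36.3 TPM). The ranges of miR-29c-3p and miR-29a-3p overlapped at P0 across libraries, although miR-29c-3p was the higher of them within every library. This order holds for the single row of miR-29b-3p. With its rows summed, miR-29b-3p ranged from 63.3 to 105 TPM at E14.5, wholly above miR-29a-3p, and from 34.5 to 72.8 TPM at P0, where it overlapped miR-29a-3p across libraries and stayed below it within each. In 1 of the 3 E14.5 libraries, replicate 3, the sum also exceeded miR-29c-3p.

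These values were read beside those of all tested miRNAs. In TPM 34.2% of the 670 miRNAs tested were called by limma at an adjusted p under 0.05, nearly all of them lower at P0 (32.8% lower, 1.34% higher), and 0 of the 4 miR-29 members were among them. Over the 670 miRNAs the median log2 fold change was −1.20 in TPM. It was −0.17 once libraries were scaled by median of ratios, which sets a typical miRNA near no change. Relative to the TPM median, miR-29a-3p stood 2.34 higher on the log2 scale, miR-29c-3p 1.42, miR-29b-3p 0.36 and miR-29c-5p 0.12. Thus 25 of the 670 miRNAs (3.73%) had a larger log2 fold change than miR-29a-3p, against 15.5% for miR-29c-3p, 38.1% for miR-29b-3p and 45.2% for miR-29c-5p.

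**Figure D2:**
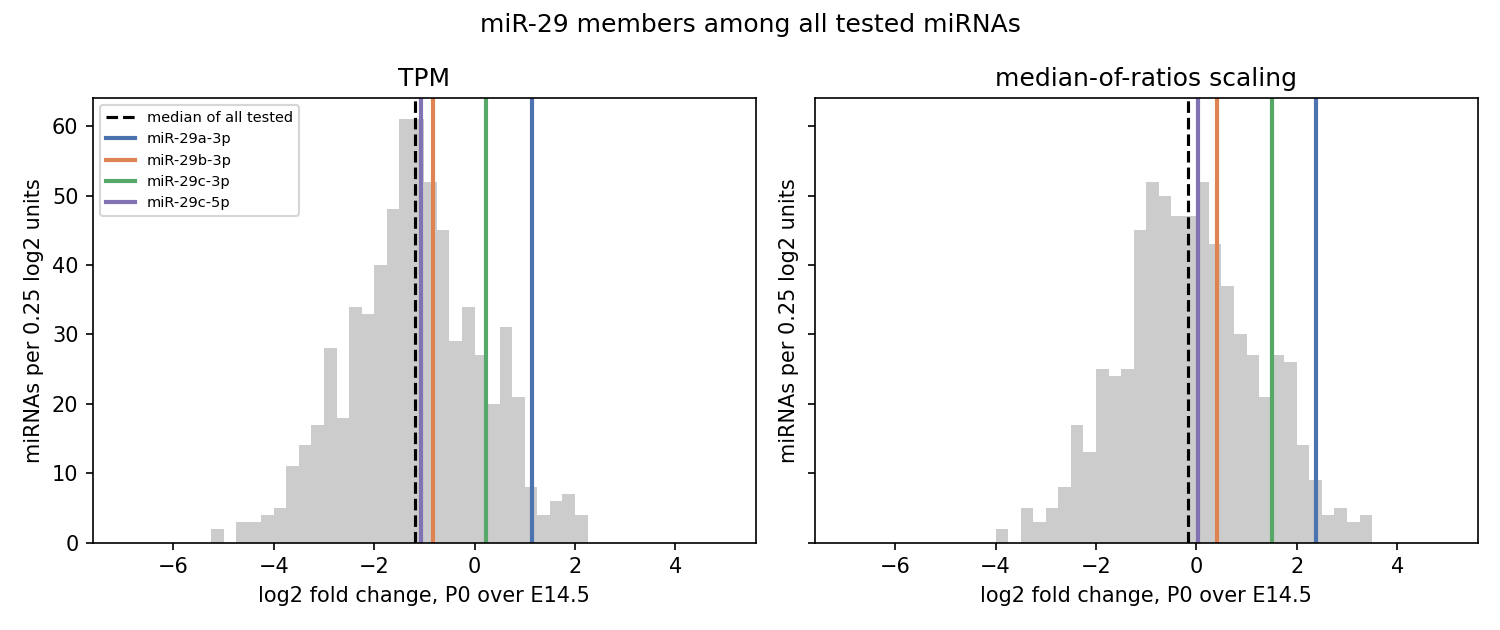
Log2 fold changes (P0 over E14.5) of the 670 tested miRNAs in TPM (left) and after median-of-ratios scaling (right), with the members as coloured lines and the median of all as a dashed line. The medians are −1.20 and −0.17; miR-29a-3p lies in the upper tail of both panels, at 1.15 and 2.39.

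After median-of-ratios scaling miR-29a-3p rose at P0. Its scaled levels were 16.5, 25.9 and 13.5 at E14.5, against 130, 84.5 and 87.3 at P0, in scaled TPM. All P0 values exceeded all E14.5 values. The P0 libraries lay closer together than in TPM, with P0 replicate 1 still the highest. The log2 fold change was 2.39 (SE 0.50, 95% interval 1.28 to 3.51; limma adjusted p = 0.0311), and 5.67% of the 670 miRNAs were called higher under this scaling. The rise was 2.15 without P0 replicate 1 (limma adjusted p = 0.00399, with 21.6% of 689 miRNAs called higher and 26.6% lower). When any of the other 5 libraries was left out instead, the adjusted p lay between 0.0519 and 0.166 and the call was lost, with log2 fold changes of 2.17 to 2.65.

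The other 3 members did not pass under this scaling. miR-29c-3p had scaled levels of 100, 107 and 54.8 at E14.5 and 432, 175 and 181 at P0, which did not overlap, and a log2 fold change of 1.50 (SE 0.53, 95% interval 0.33 to 2.67; limma adjusted p = 0.0834). miR-29b-3p had 31.6, 21.4 and 31.5 at E14.5 and 41.4, 32.5 and 37.8 at P0, with a log2 fold change of 0.41 (95% interval −0.68 to 1.49; limma adjusted p = 0.581), so its sign was opposite to that in TPM. The stages of these guides were thus separate, though by little for miR-29b-3p. Groups that did not overlap made up 35.4% of the 670 miRNAs after this scaling, 15.8% with P0 higher and 19.6% with P0 lower. miR-29c-5p had a log2 fold change of 0.027 (95% interval −1.22 to 1.28; limma adjusted p = 0.975).

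A correction of each library for the GC content of the mature sequences, which range from 34.8% in miR-29b-3p to 50.0% in miR-29c-5p among the members, called both miR-29a-3p and miR-29c-3p higher. Their log2 fold changes were 2.75 (limma adjusted p = 0.0106) and 2.10 (limma adjusted p = 0.0197), while 11.0% of the 582 miRNAs with a sequence were called, 5.67% higher and 5.33% lower. miR-29b-3p stood at 1.13 (limma adjusted p = 0.119) and miR-29c-5p at 0.0071 (limma adjusted p = 0.993).

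**Figure D3:**
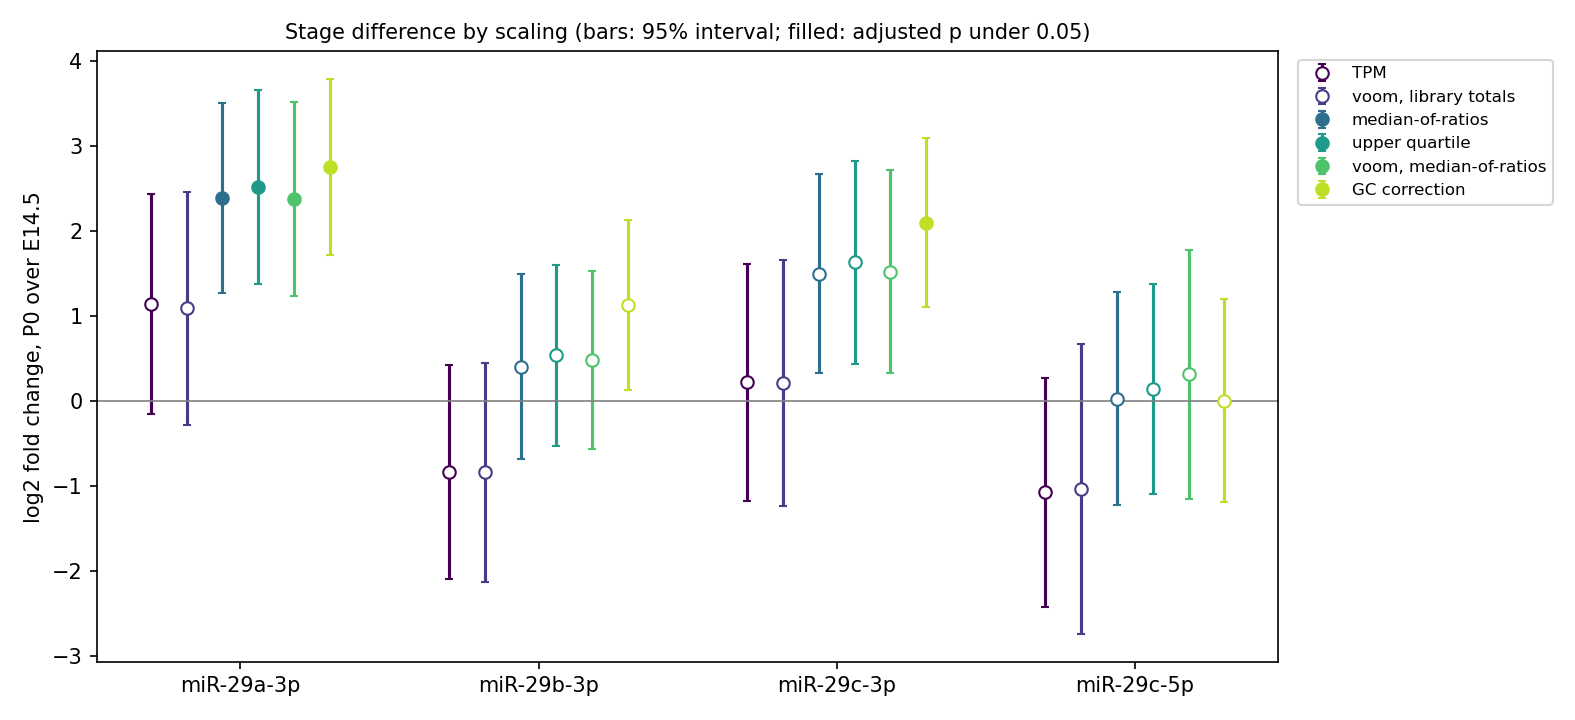
Log2 fold change (P0 over E14.5) of each member under 6 scalings, with 95% intervals from limma; filled symbols passed an adjusted p of 0.05. miR-29a-3p is above 0 throughout and passes in the 4 fits that centre the libraries on a typical miRNA; miR-29b-3p and miR-29c-5p lie below 0 in the fits on library totals and above 0 in the others.

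The authors' own comparison ordered the members by log2 fold change as the fits in TPM, after median-of-ratios scaling and after GC correction all did. In the authors' deposited table miR-29a-3p had a log2 fold change of 2.11 (standard error 0.62, adjusted p = 0.00975). The authors' deposited table called 10.4% of the 1034 miRNAs at an adjusted p under 0.05, 5.13% with higher and 5.32% with lower values at P0. In the authors' deposited table the log2 fold change was 1.10 for miR-29c-3p (adjusted p = 0.198), 0.64 for the chromosome 1 row of miR-29b-3p (adjusted p = 0.522) and 0.19 for miR-29c-5p (adjusted p = 0.916). These come from the same 6 libraries and are no independent evidence.

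Ratios between members inside a library do not depend on how libraries are scaled to each other, so 4 of them were compared. The miR-29b-3p to miR-29a-3p ratio was 1.91 (95% Wilson interval 1.42 to 2.56), 0.826 (0.750 to 0.909) and 2.34 (1.89 to 2.89) at E14.5. It was 0.319 (0.300 to 0.339), 0.385 (0.343 to 0.433) and 0.433 (0.389 to 0.482) at P0. Every E14.5 library lay above every P0 library, and P0 replicate 1 lay with the other P0 libraries. Nearest to P0 was E14.5 replicate 2, the deepest library of its stage. The log2 difference was −2.49 without that library, −1.89 without E14.5 replicate 1 and −1.74 without E14.5 replicate 3. The geometric means, 1.54 and 0.376, differed 4.11-fold, a log2 difference of −2.04 against SDs of 0.80 at E14.5 and 0.22 at P0. By exact permutation, two-sided, p was 0.1, the smallest that 3 against 3 allow (0.133 adjusted over the 4 ratios), so this comparison could not reach 0.05. Intervals cover counting error only. In TPM miR-29a-3p stood 2.34 above the median log2 fold change of the 670 tested miRNAs, and miR-29b-3p 0.36. The ratio of a typical miRNA to miR-29a-3p would thus fall by a like amount, so this fall is not particular to miR-29b-3p.

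The miR-29c-3p to miR-29a-3p ratio was 6.08, 4.14 and 4.07 at E14.5, against 3.32, 2.07 and 2.07 at P0. The stages were again separate, with geometric means of 4.68 and 2.42 and a log2 difference of −0.95 (exact permutation p = 0.1; 0.133 adjusted). The miR-29c-3p to miR-29b-3p ratio was 3.18, 5.01 and 1.74 at E14.5 and 10.4, 5.37 and 4.78 at P0, which overlapped (exact permutation p = 0.2, 0.2 adjusted).

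The arms of the Mir29c hairpin were compared in the same way. The miR-29c-5p to miR-29c-3p ratio was 0.0948 (95% Wilson interval 0.0680 to 0.132), 0.0470 (0.0403 to 0.0547) and 0.133 (0.103 to 0.173) at E14.5. It was 0.0271 (0.0244 to 0.0301), 0.0297 (0.0231 to 0.0383) and 0.0336 (0.0267 to 0.0424) at P0. The guide exceeded the passenger strand in every library, and the passenger share was lower in each P0 library than in any E14.5 library. The closest were E14.5 replicate 2 and P0 replicate 3, whose counting intervals overlapped. The geometric means were 0.0840 and 0.0300, a 2.80-fold difference and −1.48 on the log2 scale (exact permutation p = 0.1; 0.133 adjusted). The size of this difference moved with the GC correction, from −1.30 on log2(TPM + 1) to −2.09, the arms having 50.0% and 36.4% GC. It also moved with the library left out, to −1.90 without E14.5 replicate 2, the deepest of its stage. Without E14.5 replicates 1 and 3 it was −1.40 and −1.15. The same arms of Mir29a could not be compared, since miR-29a-5p was not analysed here.

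**Figure D4:**
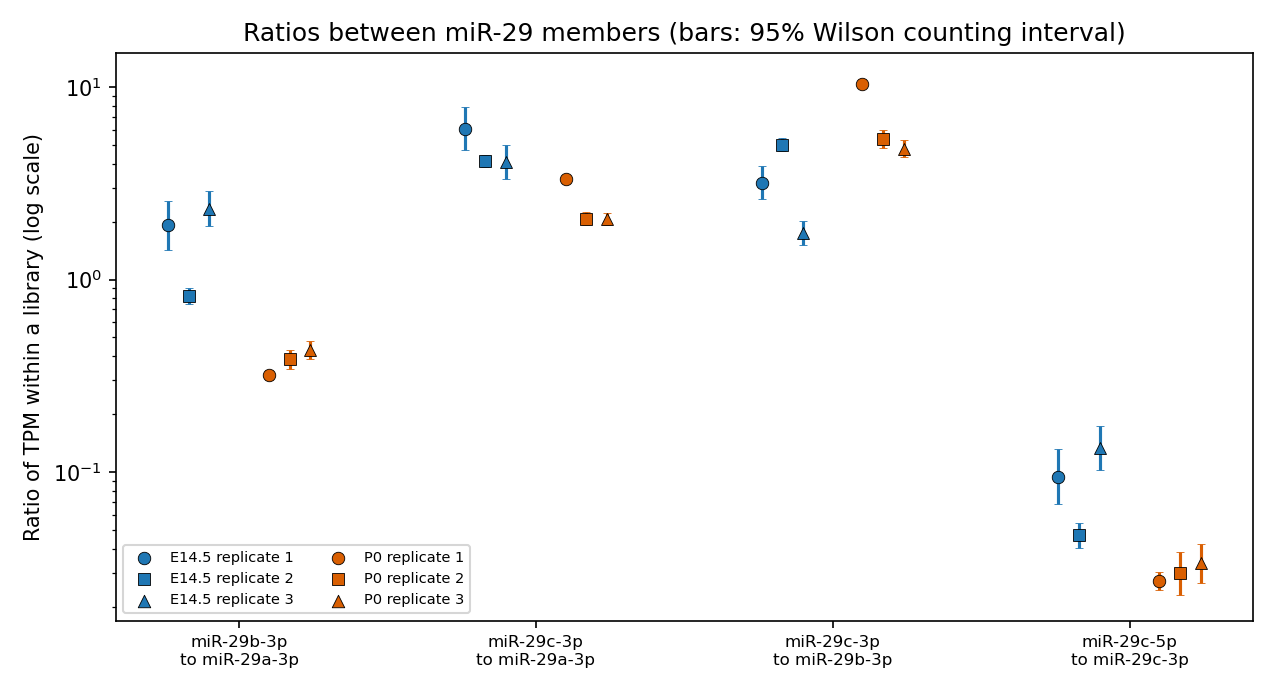
Ratios of TPM between miR-29 members within each library, on a log axis, with 95% Wilson counting intervals. Point values of E14.5 and P0 libraries are separate for miR-29b-3p to miR-29a-3p (0.826 to 2.34 against 0.319 to 0.433). They are also separate for miR-29c-3p to miR-29a-3p (4.07 to 6.08 against 2.07 to 3.32) and miR-29c-5p to miR-29c-3p (0.0470 to 0.133 against 0.0271 to 0.0336). In these last ratios the counting intervals of the closest E14.5 and P0 libraries overlap. For miR-29c-3p to miR-29b-3p the point values overlap.

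Within the guide pool the share of miR-29a-3p was higher and that of miR-29b-3p lower in all P0 libraries. miR-29a-3p made up 11.1%, 16.8% and 13.5% of the 3 guides at E14.5, against 21.5%, 28.9% and 28.6% at P0. miR-29b-3p made up 21.2%, 13.8% and 31.6% at E14.5 and 6.87%, 11.2% and 12.4% at P0. Neither share overlapped between the stages. In both shares E14.5 replicate 2, the deepest library of its stage, lay nearest to P0. With that row, miR-29c-3p had the main share, 64.0% ± 7.88 at E14.5 against 63.5% ± 6.99 at P0 (SD, n = 3), and its stages overlapped. These are shares of TPM, which is per length, and counting the rows of miR-29b-3p together would raise its share at both stages and put it above miR-29c-3p in E14.5 replicate 3 (105 against 94.0 TPM).

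**Figure D5:**
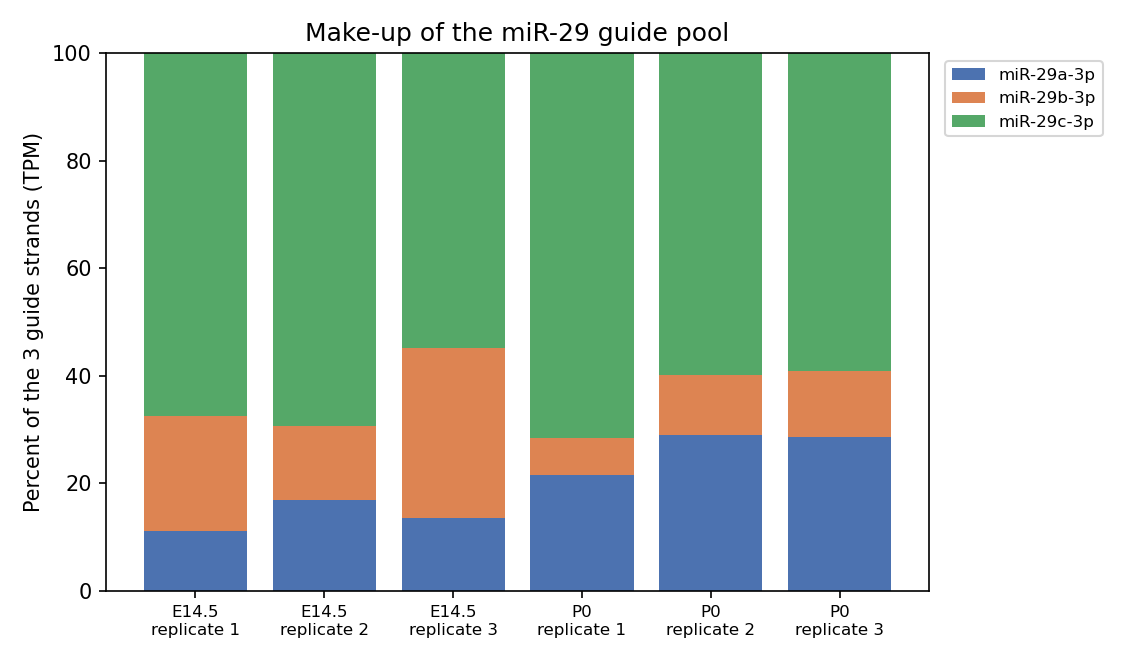
Share of each guide strand in the summed TPM of miR-29a-3p, miR-29b-3p and miR-29c-3p, per library. miR-29a-3p takes 11.1% to 16.8% at E14.5 and 21.5% to 28.9% at P0, miR-29b-3p takes 13.8% to 31.6% and 6.87% to 12.4%, and miR-29c-3p takes the most in every library when the single row of miR-29b-3p is counted.

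P0 replicate 1 stood apart from the other P0 libraries and was more like those of E14.5. Across miRNAs its log2(TPM + 1) values correlated at a mean of 0.948 to E14.5 and 0.908 to the rest of P0, whereas P0 replicate 2 had 0.878 and 0.945 and P0 replicate 3 had 0.872 and 0.940. In 226 of the 670 tested miRNAs (33.7%) it lay below every E14.5 library and above both other P0 libraries, and in 57 (8.51%) it was the highest of the 6. miR-29a-3p and miR-29c-3p belonged to those 57, whereas its miR-29b-3p and miR-29c-5p levels lay within the E14.5 range. Without this library the log2 difference in the miR-29b-3p to miR-29a-3p ratio was −1.92, that in the miR-29c-3p to miR-29a-3p ratio −1.18, and that in the ratio of the Mir29c arms −1.41.

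The profiles of the guides were also set beside those of other miRNAs. Likeness was the root mean square difference of centred log2(TPM + 1) profiles over the 6 libraries, among the 429 miRNAs outside the family that averaged 10 TPM or more, and it is given as a description. miR-29a-3p was nearest to miR-125b-5p (0.32), miR-378c (0.38) and miR-30d-5p (0.39). miR-29c-3p was nearest to miR-378a-5p (0.25), miR-361-3p (0.30) and miR-532-5p (0.31), and miR-29b-3p to miR-196a-2-3p (0.15), miR-181a-1-3p (0.15) and miR-664-5p (0.22). Within the family the differences were 0.55 between miR-29a-3p and miR-29c-3p, 0.77 between miR-29b-3p and miR-29c-3p, and 1.10 between miR-29a-3p and miR-29b-3p. These were not ranked among the 429. The nearest profiles were picked as the smallest of 429, so a larger value within the family does not show that the guides were unusually unlike.

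Other miRNAs described in kidney fibrosis and matrix regulation were counted as a list of 20, all of them tested. In TPM 1 was called higher and 8 lower at P0, beside 1.34% higher and 32.8% lower of all tested miRNAs, with a median log2 fold change of −1.59 against −1.20 for all tested miRNAs. After median-of-ratios scaling 3 were called higher and 2 lower, against 10.9% of all tested miRNAs (5.67% higher, 5.22% lower), and the median was −0.32 against −0.17. The lower ones under both scalings were miR-200a-3p and miR-200b-3p, which restrain epithelial-to-mesenchymal change, and the higher one under both was let-7b-5p. On the log2 scale they stood at −3.75, −4.55 and 2.04 in TPM (limma adjusted p = 0.00484, 0.00343 and 0.00698) and at −2.46, −3.27 and 3.32 after scaling (limma adjusted p = 0.0461, 0.0311 and 0.0186). miR-21a-5p, widely studied as a profibrotic miRNA, had 5369, 2783 and 3833 TPM at E14.5, against 1758, 379 and 435 TPM at P0. In TPM it passed at −2.54 on the log2 scale (limma adjusted p = 0.0101), and after scaling it did not, at −1.25 (limma adjusted p = 0.118). Without P0 replicate 1, 3 of the 20 were called higher and 14 lower in TPM, and 4 higher and 10 lower after scaling, where 61.0% and 48.2% of all miRNAs were called. miR-21a-5p was among the lower ones in both of these fits. Of the list, 7 were also on a list of cell-type markers below.

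Marker miRNAs of other cell types were summed per library, and their part in the miR-29 values was not tested. Their counts stand beside 32.8% of all 670 miRNAs called lower and 1.34% higher in TPM. The 2 endothelial markers summed to 26608 to 44921 TPM at E14.5 and 5634 to 8158 TPM at P0, and both were called lower. The 5 epithelial markers summed to 4122 to 23183 and 500.2 to 1542 TPM, with 5 called lower. The 9 stromal and smooth muscle markers summed to 124424 to 149013 and 56910 to 73430 TPM, with 6 called lower. The 5 erythroid markers summed to 242 to 417 and 128 to 194 TPM, with 1 called lower. Among them miR-486a-3p passed the filter on low values only through P0 (means of 0.149 and 2.75 TPM) and is left out of the counts, which cover the other 4. The 4 leukocyte markers summed to 632 to 1202 and 454 to 629 TPM, with 0 called. The 4 kidney tubule markers, of which 3 were tested, summed to 766 to 1525 and 264 to 1009 TPM, with 1 called lower. The counts for the last 3 lists were near or under that background.

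After median-of-ratios scaling, where 5.22% of all miRNAs were called lower and 5.67% higher, 1 endothelial and 3 epithelial markers were called lower and 1 leukocyte marker higher, with 0 in the other lists. All of these scaled calls, and the 5 of the fibrosis list, were lost without E14.5 replicate 1, without E14.5 replicate 3 or without P0 replicate 2, where 0 of all miRNAs were called by limma (141, 140 and 150 at an unadjusted p under 0.05). Without E14.5 replicate 2 and without P0 replicate 3, limma called 7 and 2 of all miRNAs. Without P0 replicate 1, all 9 stromal, 5 epithelial, 3 tubule, 2 endothelial and 2 leukocyte markers were called lower in TPM. In the same fit 1 erythroid marker was called higher and 2 lower, beside 53.0% of all miRNAs lower and 7.98% higher. After scaling without P0 replicate 1, 6 stromal (1 higher, 5 lower), 3 erythroid (1 higher, 2 lower) and 1 tubule marker (lower) were called. The calls of 1 endothelial and 3 epithelial markers (lower) and 1 leukocyte marker (higher) stayed in that fit. Of all miRNAs it called 26.6% lower and 21.6% higher. No listed marker was at 0 in all libraries. In such bulk samples fewer cells of a type and less RNA per cell cannot be told apart, and with mature miRNAs alone the progenitor identity of the cells was not checked.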

How the data were processed

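Small RNA libraries (QIAseq kit, single-end) of 6 litter pools were analysed. The submitters' processing notes name featureCounts, DESeq2 1.26.0 and the build mm10. Trimming, alignment and the use of molecular tags are not given in the sources used here. The authors deposited 1 table of 1104 rows with TPM per sample. Per the file headers it also holds baseMean (a normalised signal), log2 fold changes and their errors (log2), a statistic (a score), and p-values, raw and adjusted. Deposited fold changes had the sign of P0 minus E14.5 scaled means in 108 of 108 called miRNAs. TPM multiplied by end minus start gave whole multiples of 1 step per library (within 0.001) in 100% of values, which gave the recovered reads.

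Stages were compared on log2(TPM + 1) in limma 3.58.1 under R 4.3.3, with variances moderated along the mean, stage as the only term, all 6 samples, a mean of at least 1 TPM, and Benjamini-Hochberg adjustment over all 670 miRNAs. A pseudocount of 1 understates changes of low miRNAs. Ratios were compared by exact two-sided permutation (SciPy 1.17.1). A floor of 3 reads equalled 0.0863 to 1.14 TPM for a 21-base step. Each sample is another litter, so p-values measure the spread between litters and their preparation. Sequences are RefSeq's, found for 885 of 1034 names (85.6%), and gene context is from GENCODE M21 (GRCm38).

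Named miRNAs were the listed members, the other passenger strands of the same hairpins, and the 3 nearest profiles of each guide, with members of the fibrosis list named only with their values. Of those passenger strands miR-29b-1-5p matched no row. miR-21a-5p, miR-92b-5p and the fibrosis list members called under both scalings were singled out after their values or sequences were seen. Members and lists were chosen with earlier results of these data known. Alternatives were other scalings (median-of-ratios, upper quartile), limma-voom on recovered reads, filters, a pseudocount of 0.1, summed rows, a GC correction (loess, span 0.75), the replicate number as a block, and leaving out each library.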

Additional observations from a re-analysis of the deposited data

How the results depend on the processing

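The smallest library had 66 reads of miR-29a-3p, so counting error was largest there. The number of miRNAs called by limma was 229 in TPM, 73 with median-of-ratios scaling, 63 with upper-quartile scaling, 28 when limma-voom used median-of-ratios factors and 64 with the GC correction. Leaving out 1 library gave 72 to 420 in TPM, and 0 to 332 with median-of-ratios scaling (7 without E14.5 replicate 2, 2 without P0 replicate 3, and 0 without E14.5 replicate 1, E14.5 replicate 3 or P0 replicate 2, where limma gave 141, 140 and 150 at an unadjusted p under 0.05). Correlations of same-numbered deviations were 0.193, 0.183 and 0.0423, and those of differently numbered ones lay between −0.182 and 0.0770. These values do not settle whether the numbers pair the samples. As each sample is another litter, they were not taken as pairs in the main fit. With the replicate number as a block 247 were called in TPM, 67 with median-of-ratios scaling and 79 with GC correction.

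miR-29a-3p passed with median-of-ratios (2.39), upper-quartile (2.52), voom with median-of-ratios factors (2.37) and GC correction (2.75). With the replicate block and scaling it was 2.39 (limma adjusted p = 0.0361), with block and GC 2.75 (0.0129), and with the block in TPM 1.15 (0.149). Left-out libraries gave 0.73 to 1.39 in TPM and 2.15 to 2.65 after scaling. miR-29b-3p turned positive with median-of-ratios (0.41), upper-quartile (0.54), voom with those factors (0.48) and GC correction (1.13), and under the block with scaling (0.41) or GC (1.13). Left-out libraries gave −1.13 to −0.61 in TPM and 0.24 to 0.56 after scaling (0.47, 0.24 and 0.47 without E14.5 replicates 1, 2 and 3, and 0.28, 0.56 and 0.42 without P0 replicates 1, 2 and 3). miR-29c-3p passed only with GC correction, at 2.10 (limma adjusted p = 0.0197; with the block 2.10 and 0.0202), and gave −0.43 to 0.59 in TPM and 1.02 to 1.78 after scaling when libraries were left out. miR-29c-5p turned positive with median-of-ratios (0.027), upper-quartile (0.15), voom with those factors (0.32) and GC correction (0.0071), and under the block with scaling (0.027) or GC (0.0071). Left-out libraries gave −1.56 to −0.77 in TPM and −0.33 to 0.29 after scaling (above 0 at 0.20 and 0.025 without E14.5 replicates 1 and 3, and at 0.29 and 0.16 without P0 replicates 2 and 3). miR-29b-2-5p turned positive with GC correction only (0.21, with the block 0.21). The cause of these differences was not tested. The 4 ratios kept their sign under a pseudocount of 0.1, summed rows and each left-out library. Under a GC correction, chosen after seeing the data, the log2 differences were −1.62 (miR-29b-3p to miR-29a-3p), −0.65 (miR-29c-3p to miR-29a-3p), 0.97 (miR-29c-3p to miR-29b-3p) and −2.09 (the Mir29c arms).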
